A study of Mus musculus with 14 samples.

Results

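The genes of MHC class II presentation were examined as a group of 10 among the 32285 genes counted in white nodules of Eif3e fl/fl Cγ1Cre (cKO) mice. They were taken by their symbols, namely H2-Aa, H2-Ab1 and H2-Eb1, Cd74, Ciita, H2-DMa, H2-DMb1 and H2-DMb2, and H2-Oa and H2-Ob. All 10 were found. Of them 8 lie within the H2 region of chromosome 17, between H2-Oa (GRCm38.p6, from 34092379) and H2-Eb1 (to 34316674), Ciita lies on chromosome 16 (10480014 to 10531064) and Cd74 on another chromosome. Nodules came from 7 mice on a C57BL/6J background whose floxed Eif3e alleles are deleted by a Cre made from the Ighg1 locus, so that deletion is aimed at activated B cells. From each nodule 1 single-cell RNA library was made, with a BCR library in 5 mice and a TCR library in 2 mice. BCR nodules came from a liver (mouse 27, aged 12 months), a lung (mouse 29, 12 months), a spleen (mouse 31, 13 months), a thymus (mouse 33, 16 months) and a sample of lung with thymus (mouse 34, 9 months). TCR nodules came from a liver (mouse 30, 14 months) and a spleen (mouse 32, 12 months). The nodule of mouse 27 had grown in a Rag2-/- recipient after transfer, and mouse 34 was a mixed bone marrow chimera of JHT and cKO cells. Cells other than B cells may there come from the recipient or from the JHT donor. A Rosa26-YFP reporter is listed for mice 29, 31, 32 and 34. With 1 nodule a mouse, the effects of mouse, organ and age cannot be told apart, and no nodule of a control mouse was analysed here.

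MHC class II molecules present peptides from the endosome to CD4+ T cells. Their α and β chains, here H2-Aa with H2-Ab1, are made together with the invariant chain Cd74, which blocks the groove until it is degraded. H2-Eb1 is a β chain whose usual partner, H2-Ea, is not expressed in C57BL/6J mice. H2-DM, made of H2-DMa and either H2-DMb1 or H2-DMb2, then exchanges the remaining fragment for a peptide, and H2-DO, made of H2-Oa and H2-Ob, restrains H2-DM. Ciita is a coactivator of class II genes at promoters bound by RFX and NF-Y. B cells, dendritic cells and activated macrophages are the usual sources of class II, and mouse T cells are not.

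Cells were grouped by V(D)J and by markers. A clone was all cells of a nodule with its commonest heavy chain, or with the light chain commonest beside it, by V, J and CDR3, which gave 1782, 323, 3974, 1084 and 1416 cells in mice 27, 29, 31, 33 and 34, with median UMIs of 9367 to 13763 per cell. Other B cells were cells of B-like clusters with another BCR, 33, 40, 27 and 24 cells in mice 29, 31, 33 and 34 and none in mouse 27. Macrophage-like cells numbered 146, 518, 342, 834 and 75 in the same order as the clones, and T-like cells 574 to 5115 in BCR mice. Levels are UMIs summed over the cells of a group and mouse, scaled to 1000000 UMIs (CPM). UMI depth per gene was not corrected for transcript length, so levels are compared for 1 gene between groups and not between genes. Clone cells held the B cell receptor gene Cd79a at 280 to 1121 CPM and the macrophage complement gene C1qa at 0.770 to 10.6 CPM, whereas macrophage-like cells held Cd79a at 7.57 to 28.98 CPM and C1qa at 857 to 3005 CPM. The floxed gene Eif3e was at 169 to 243 CPM in the 5 clones and 119 to 172 CPM in T-like cells, although a count over the whole gene need not fall in the deleted part. In the paper, tumor B cells and CD4+ T cells, primary or transplanted, lacked YFP and had eIF3e protein at normal amounts. Between 96 and 286 cell barcodes were shared by any pair of RNA libraries. Libraries held 19264039 to 123456962 UMIs.

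The stretch before the gene start is shown for 6 members with a RefSeq entry, from 130 to 31 bases before the start (GRCm38.p6), 5′ to 3′ on the strand of the gene. Capitals mark the motif GATTGG, the core of the Y box that NF-Y binds, sought on both strands. The 6 were picked because this stretch held the motif, and its part in the levels of these genes was not tested.
H2-Aa (chr17:34287854-34287953, minus strand): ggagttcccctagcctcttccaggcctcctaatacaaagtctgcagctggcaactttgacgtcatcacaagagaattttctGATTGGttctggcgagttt
H2-Eb1 (chr17:34305737-34305836, plus strand): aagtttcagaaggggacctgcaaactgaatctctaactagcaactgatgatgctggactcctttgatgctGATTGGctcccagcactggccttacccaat
H2-DMb1 (chr17:34153061-34153160, plus strand): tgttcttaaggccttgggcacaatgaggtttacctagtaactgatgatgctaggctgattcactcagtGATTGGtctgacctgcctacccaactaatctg
H2-DMb2 (chr17:34145119-34145218, plus strand): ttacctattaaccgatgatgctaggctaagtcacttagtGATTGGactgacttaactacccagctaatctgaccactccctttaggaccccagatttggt
H2-Oa (chr17:34092249-34092348, plus strand): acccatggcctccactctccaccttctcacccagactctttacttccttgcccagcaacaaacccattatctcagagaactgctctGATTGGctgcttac
H2-Ob (chr17:34238775-34238874, plus strand): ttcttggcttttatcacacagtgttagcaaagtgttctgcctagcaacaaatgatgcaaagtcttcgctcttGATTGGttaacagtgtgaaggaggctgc
In these 6 genes of chromosome 17 the motif lay 49 (H2-Aa), 60 (H2-Eb1), 62 (H2-DMb1), 91 (H2-DMb2), 44 (H2-Oa) and 58 (H2-Ob) bases before the start, in the same orientation as the gene. H2-Eb1 also held it on the other strand, beginning 35 bases before the start. Over all 32851 promoter entries of 300 bases, a longer window than the 100 bases shown, 16.1% held the motif on either strand. Neither annotated start of H2-DMa held the motif in this stretch, and the second held it 199 bases before the start. A match is a string of letters and not a site in use. No sequence is shown for H2-Ab1, Ciita or Cd74. The H2-DMb1 and H2-DMb2 genes are near-identical neighbours, so reads can be split between them.

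Class II genes were high in 4 of the 5 clones and low in the clone of mouse 29. H2-Aa, an α chain, reached 2719, 2371, 1961 and 3630 CPM in the clones of mice 27, 31, 33 and 34 and 227 CPM in that of mouse 29. H2-Ab1, its β chain partner, was at 1666, 1362, 1232 and 1514 CPM in the same 4 clones and at 195 CPM in mouse 29. H2-Eb1, the other β chain, was at 1900, 1688, 1602 and 2290 CPM and at 259 CPM in mouse 29. For all 3 chains mouse 29 lay far under the lowest of the other 4 clones. Cd74 followed with 7297, 8169, 6018 and 11790 CPM against 2079 CPM in mouse 29. Ciita was at 113, 127, 89.5 and 89.0 CPM against 24.6 CPM.

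The peptide exchange genes were also lowest in mouse 29. H2-DMa was at 366, 475, 289 and 457 CPM in mice 27, 31, 33 and 34 and at 37.2 CPM in mouse 29. H2-DMb2 was at 603, 461, 345 and 506 CPM against 61.6 CPM, and H2-DMb1 at 46.1, 34.5, 47.6 and 39.0 CPM against 7.44 CPM. H2-Oa was at 91.9, 72.9, 82.1 and 94.4 CPM against 11.3 CPM. H2-Ob was at 191, 117, 119 and 187 CPM against 42.8 CPM. Every member thus had its lowest level in mouse 29, as had 1592 (26.5%) of the 6008 genes with a mean of at least 20 CPM over the clones. Over the 10 genes together the level was 14994, 14877, 11786 and 20598 CPM in the 4 high clones and 2945 CPM in mouse 29, with a mean of 13040 ± 6477 CPM (SD, n = 5 mice). The clone of mouse 34 led for Cd74, H2-Aa, H2-Eb1 and H2-Oa, whereas H2-DMb2, H2-Ab1 and H2-Ob were highest in mouse 27.

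**Figure D1:**
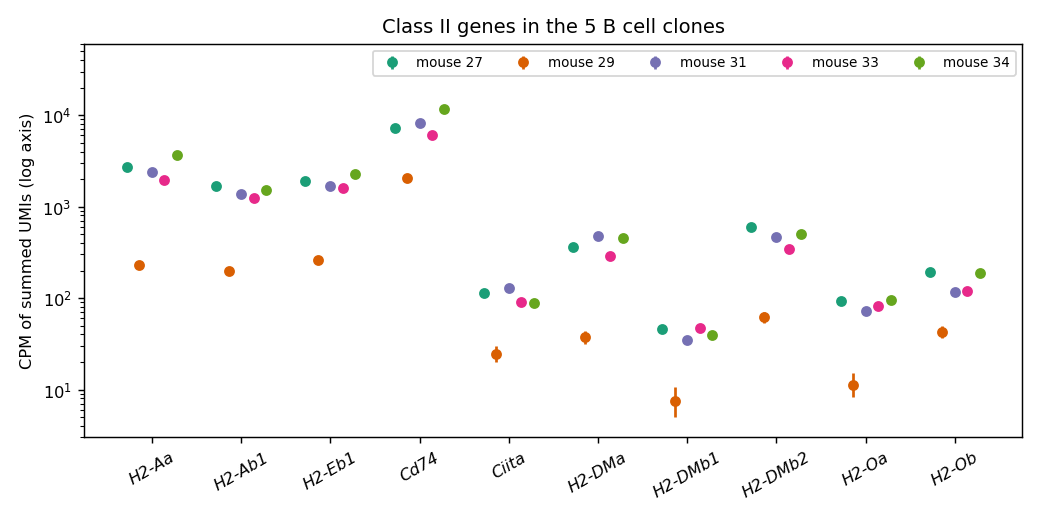
Levels of the 10 class II genes in the 5 B cell clones, in CPM on a log axis, with 1 point per mouse and exact Poisson 95% intervals that cover counting error only. The clone of mouse 29 is the lowest point for every gene, at 227 CPM against 1961 to 3630 CPM for H2-Aa.

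The gap between mouse 29 and the other clones was not even across the members. H2-Aa and H2-DMa stood at 8.93% and 9.04% of the median of the other 4 clones, H2-DMb2 at 12.7%, H2-Oa at 13.0%, H2-Ab1 at 13.6%, H2-Eb1 at 14.4% and H2-DMb1 at 17.5%. Ciita at 24.3%, Cd74 at 26.9% and H2-Ob at 28.02% were reduced least. There were accordingly 9.15 Cd74 UMIs per H2-Aa UMI in the clone of mouse 29 and 2.68 to 3.44 in the others. Of the 6008 genes with a mean of at least 20 CPM over the clones, 869 (14.5%) were under 50% of that median in mouse 29 and 274 (4.56%) under 25%, compared with 10 and 8 of the 10 members. The B cell genes Cd79a and Cd79b, at 85.6% and 73.7% of the median, did not share a gap of this size, but Ms4a1 did, at 23.8%. With 1 clone on the low side these values are a description, and no test applies.

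Depth did not separate the clone of mouse 29, whose median of 11273 UMIs per cell lay within the range of the others. When every clone cell was thinned to 2000 UMIs, class II genes held a median of 30, 31, 24 and 42 UMIs per cell in mice 27, 31, 33 and 34 and 5 in mouse 29. No thinned cell of the 4 high clones lacked class II UMIs (0 of 1770, 3962, 1077 and 1415 cells, which allows shares of up to 0.0757% to 0.279%), whereas 25 of 322 cells (7.76%) did in mouse 29. H2-Aa was seen in 35.4% of thinned cells in mouse 29 and in 96.4% to 99.2% elsewhere, and Cd74 in 89.8% compared with at least 99.9%.

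Genes that control class II were then read in the clones. Of the transcription list, Rfx5, a subunit of the RFX complex, was at 18.5 CPM in mouse 29 and 18.4 to 22.7 CPM in the others. Nfyb, a subunit of NF-Y, was at 37.7 CPM against 29.9 to 50.7 CPM. Neither set mouse 29 apart. Irf8, a factor of B cells and myeloid cells, was lowest there at 107 CPM, next to 114 CPM in mouse 33, and reached 388 CPM in mouse 31. Pax5, the B lineage factor, was highest there at 223 CPM against 67.9 to 143 CPM. Among processing genes, Ctsh, a lysosomal protease, was at 17.4 CPM in mouse 29 and 99.4 to 308 CPM elsewhere, whereas Ctss, the main protease of the invariant chain in B cells, was at 223 CPM and 134 to 268 CPM.

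Low class II in mouse 29 was not particular to its clone. Its other B cells held 4078 CPM of the 10 genes, compared with 24559, 11499 and 21986 CPM in mice 31, 33 and 34. These 33 cells of mouse 29 held 23.6% immunoglobulin UMIs, against 0.954% to 7.10% in the other mice. With immunoglobulin UMIs left out of the total they held 5335 CPM, against 12378 to 25131 CPM. Their makeup may thus differ from that of the other mice, and its part in the class II values was not tested. B-like cells without a V(D)J call held 2887 CPM in mouse 29 and 11629 to 24461 CPM in the other BCR mice. Many of them may belong to the clone, since cells with a call in mouse 29 gave 323 clone cells and 33 other B cells. Macrophage-like cells were at 2547 CPM in mouse 29 and at 17655, 31332, 15903 and 16644 CPM in mice 27, 31, 33 and 34. H2-Aa in them was at 369 CPM in mouse 29 and 3115 to 5535 CPM elsewhere. Their own marker C1qa was at 857 CPM in mouse 29 and 2383 to 3005 CPM elsewhere, and the part of this in the class II values was not tested. Clone, other B cells and macrophage-like cells were thus each lowest in mouse 29. So were uncalled B-like cells, which cannot be counted as separate from the clone.

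The macrophage-like cells of mouse 29 came mostly from a cluster that the other mice scarcely held (68.3% of them, led by Apoe, Selenop and Gpnmb), so the clusters were compared singly. In the cluster with at least 20 cells in every BCR mouse, led by Apoe, C1qb and C1qc, the 10 genes summed to 17872, 26625, 13529 and 15205 CPM in mice 27, 31, 33 and 34 (100, 21, 52 and 36 cells) and to 667 CPM in the 102 cells of mouse 29. Members of the class II list were not used for clustering. The 4 dendritic-like cells of mouse 29, too few to weigh, were at 14042 CPM, also under the other BCR mice (35698 to 59538 CPM in 2 to 24 cells).

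**Figure D2:**
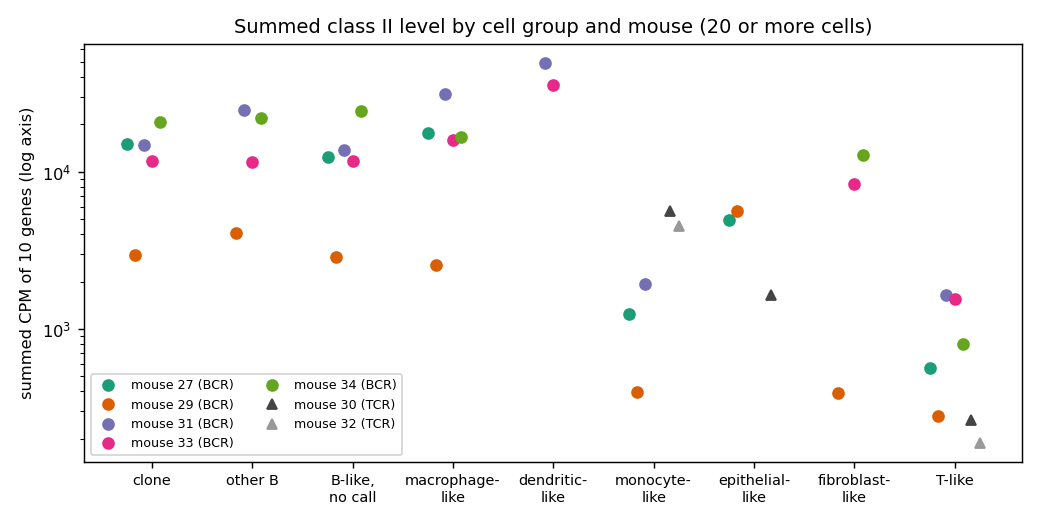
Summed CPM of the 10 genes (log axis) by cell group, with 1 point per mouse for groups of at least 20 cells, circles for BCR mice and triangles for TCR mice. Mouse 29 is the lowest BCR point among clones, other B cells and macrophage-like cells, at 2945, 4078 and 2547 CPM. It is also the lowest BCR point among uncalled B-like, monocyte-like, fibroblast-like and T-like cells. Among epithelial-like cells it lies at 5663 CPM, above mouse 27 at 4956 CPM (30 cells), the only other BCR mouse shown there.

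Clones were next compared with the other B cells of the same nodules, in the 4 mice with at least 20 of each. With edgeR's quasi-likelihood test and the mouse as a block, 0 of the 10 members passed an adjusted p of 0.05 in either direction. Over all genes, 2 of 9241 did (0.0216%), both immunoglobulin genes that were lower in the clone (Ighm and Igkv4-91). An unadjusted p under 0.05 was seen for 1011 genes. DESeq2 called 24 genes higher, 97 lower and no member. H2-DMb1 was at 7.44, 34.5, 47.6 and 39.0 CPM in the clones of mice 29, 31, 33 and 34 and 20.4, 138, 37.2 and 86.8 CPM in other B cells, a log2 fold change of -1.08 ± 0.41 (SE; unadjusted p = 0.0228, edgeR adjusted p = 0.395). H2-Oa had -0.82 ± 0.30 (unadjusted p = 0.0223, edgeR adjusted p = 0.391). These were the members with an unadjusted p under 0.05. The clone of mouse 33 was above its other B cells for H2-DMb1, and that mouse was level for H2-Oa (82.1 and 82.6 CPM).

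The core genes differed by less than their error allowed a call. H2-Aa had a log2 fold change of -0.45 ± 0.23, H2-Ab1 of -0.18 ± 0.22, H2-Eb1 of -0.43 ± 0.25 and Cd74 of -0.40 ± 0.21 (edgeR adjusted p = 0.514, 0.804, 0.566 and 0.534). Ciita had -0.38 ± 0.28, H2-DMa 0.11 ± 0.28, H2-DMb2 0.04 ± 0.27 and H2-Ob -0.58 ± 0.27. The median over the members was -0.41 and that over all genes 0.13. With 24 to 40 other B cells a mouse, changes of this size were not resolved, and this does not show that clone and other B cells are alike. Against B-like cells without a call, H2-Aa, H2-Ab1, H2-Eb1 and Cd74 were between 0.03 and 0.10 higher in the clone, with no call. The DO to DM balance was lower in the clone in 4 of 4 mice. H2-Oa and H2-Ob together gave 0.510, 0.195, 0.295 and 0.281 UMIs per DM UMI in the clones of mice 29, 31, 33 and 34 and 0.947, 0.302, 0.386 and 0.440 in other B cells (exact two-sided paired permutation test, p = 0.125, the smallest that 4 mice allow). The value for other B cells of mouse 29 rests on 18 DO and 19 DM UMIs. Against uncalled B-like cells the clone had the higher ratio in 1 of 5 mice (exact two-sided paired permutation test, p = 0.3125). Other B cells of mouse 29 held 23.6% immunoglobulin UMIs, compared with 0.954% to 7.10% in the other mice, and Prdm1, the plasma cell factor, averaged 49.2 CPM in other B cells and 10.9 CPM in these clones. The part of that in the class II values was not tested. Of the related genes, 0 of 11 tested transcription genes, 0 of 10 processing genes and 0 of 4 turnover genes passed. March1, a ligase that removes class II from the surface, was at 45.9, 152, 37.2 and 94.7 CPM in other B cells of mice 29, 31, 33 and 34 and at 9.75, 52.3, 22.6 and 11.4 CPM in the clones (log2 fold change -1.95 ± 0.42, edgeR adjusted p = 0.143).

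Against macrophage-like cells the clones differed in the makeup of their class II genes, whereas no difference in the sum was resolved. Macrophage-like cells of mouse 27 may come from its recipient and those of mouse 34 from the JHT donor. Cell type and genotype cannot be told apart in these pairs. Summed class II averaged 13040 ± 6477 CPM in clones and 16816 ± 10197 CPM in macrophage-like cells (SD, n = 5 mice). The clone had the larger sum in 2 of the 5 nodules (exact paired permutation test, two-sided p = 0.438, smallest possible 0.0625). By edgeR, 7 of 10 members passed, where 46.4% of the 10629 genes tested did. Of these, 4 were higher in the clone, where 24.9% of genes were, and 3 were lower, where 21.5% of genes were. H2-Ob, H2-DMb2, H2-Oa and Ciita rose and H2-DMb1, H2-Eb1 and H2-Aa fell. The median over the members was 0.11 and that over all genes 0.17 on the log2 scale. Without the mouse as a block only H2-DMb1 remained among the lower genes (adjusted p 0.157 for H2-Eb1 and 0.369 for H2-Aa).

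H2-Ob was at 7.21, 1.42, 6.51, 8.48 and 6.85 CPM in macrophage-like cells of mice 27, 29, 31, 33 and 34, under every clone. The difference was 4.20 ± 0.24 on the log2 scale (SE, edgeR adjusted p = 5.06e-05). H2-Oa was at 2.88, 0.473, 13.0, 11.0 and 2.28 CPM (2, 1, 22, 44 and 1 UMIs), a difference of 3.42 ± 0.45 (adjusted p = 0.00106). In macrophage-like cells B cell genes were not at 0 (Cd79a 7.57 to 28.98 CPM), and the part of B cell RNA in these DO values was not tested. DO UMIs per DM UMI were 0.278, 0.510, 0.195, 0.295 and 0.281 in the clones of mice 27, 29, 31, 33 and 34. In macrophage-like cells the same ratio was 0.0233, 0.0265, 0.0268, 0.0463 and 0.0313, with no overlap between the groups (exact paired permutation test, two-sided p = 0.0625, the smallest that 5 mice allow).

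The β chain of H2-DM parted the clones from macrophage-like cells. H2-DMb2 was at 28.8, 1.42, 55.6, 38.7 and 27.4 CPM in macrophage-like cells and was 3.71 ± 0.34 higher in clones (log2, adjusted p = 0.000258). H2-DMb1 was at 174, 33.6, 344, 184 and 139 CPM and was lower in the clones (log2 fold change -2.43 ± 0.30, adjusted p = 0.000808). H2-DMb2 made up 92.9%, 89.2%, 93.0%, 87.9% and 92.8% of the H2-DMb UMIs in the clones and 14.2%, 4.05%, 13.9%, 17.4% and 16.4% in macrophage-like cells (exact paired permutation test, two-sided p = 0.0625, the smallest possible). This included the low clone of mouse 29. Other B cells stood with the clones at 86.0%, 87.8% and 84.1% in mice 31, 33 and 34, and at 60.0% in mouse 29, where only 10 H2-DMb UMIs were counted (95% Clopper-Pearson interval 26.2% to 87.8%). Their common partner H2-DMa showed no call, at a difference of 0.53 ± 0.29 (adjusted p = 0.175). A high H2-DMb2 share was not confined to B cells, since fibroblast-like cells stood at 33.6%, 70.9% and 78.9% in mice 29, 33 and 34. The split by β chain was read from reads that the near-identical genes could share.

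**Figure D3:**
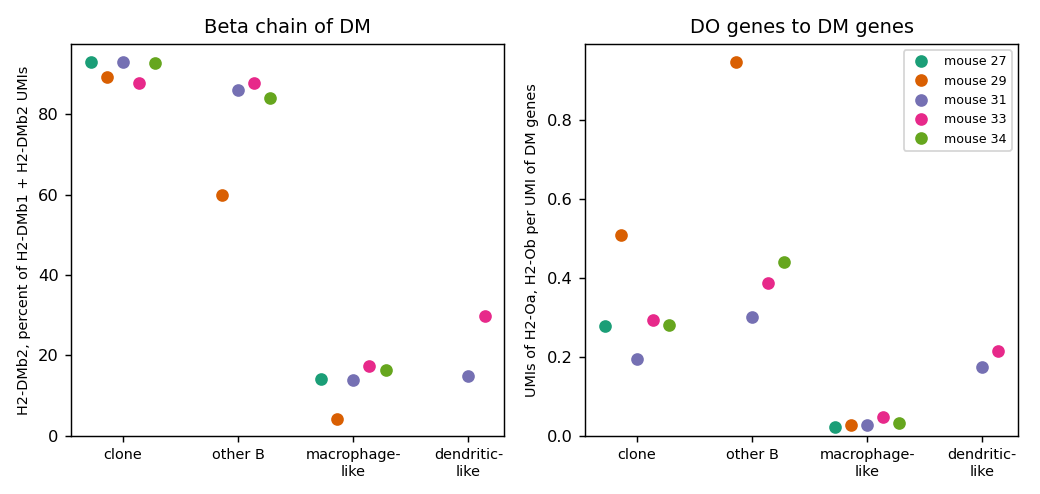
Left, H2-DMb2 as a percent of H2-DMb1 plus H2-DMb2 UMIs, and right, UMIs of H2-Oa and H2-Ob per UMI of H2-DMa, H2-DMb1 and H2-DMb2, for groups of at least 20 cells with 1 point per mouse. Clones sit at 87.9% to 93.0% on the left and macrophage-like cells at 4.05% to 17.4%.

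Ciita was higher in the clone although H2-Aa and H2-Eb1 were lower. It was at 15.9, 4.73, 33.1, 41.2 and 20.6 CPM in macrophage-like cells of mice 27, 29, 31, 33 and 34, a difference of 1.84 ± 0.25 (log2, SE, edgeR adjusted p = 0.00128). H2-Eb1, at 2756, 378, 5213, 3202 and 3172 CPM in macrophage-like cells, had a log2 fold change of -1.03 ± 0.24 in the clone (adjusted p = 0.0109). H2-Aa had -0.79 ± 0.24 (adjusted p = 0.0326), a call lost without mouse 27, 29, 31 or 33 (adjusted p 0.0632 to 0.0836) or with low-count genes kept (adjusted p = 0.155). H2-Ab1 had -0.67 ± 0.25 (adjusted p = 0.0601) and Cd74 -0.30 ± 0.28 (adjusted p = 0.404). Per 1000 H2-Ab1 UMIs there were 67.9, 126, 93.6, 72.6 and 58.8 Ciita UMIs in the clones and 8.91, 22.4, 9.41, 22.4 and 11.6 in macrophage-like cells (exact paired permutation test, two-sided p = 0.0625, the smallest possible). Ciita overlaps the counted gene Dexi by 858 bases, and the part of Dexi reads in these values was not tested. Over the 15 permutation tests of ratios and sums against macrophage-like, other B and uncalled B-like cells, the smallest Benjamini-Hochberg adjusted p was 0.156 (exact permutation).

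Cell-to-cell spread was compared after thinning. In thinned macrophage-like cells the coefficient of variation of class II UMIs was 1.06, 1.87, 0.774, 0.793 and 1.39 in mice 27, 29, 31, 33 and 34, and in the clones it was 0.349 to 0.443 in mice 27, 31, 33 and 34 and 0.795 in mouse 29. This measure grows as the mean falls, and the means differed, so the values are a description. Class II UMIs were missing from 136 of 362 thinned macrophage-like cells in mouse 29 (37.6%) and from 1.44% to 4.91% of them in the other mice. Thinning left out 23 to 349 shallower macrophage-like cells a mouse and 1 to 12 clone cells.

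**Figure D4:**
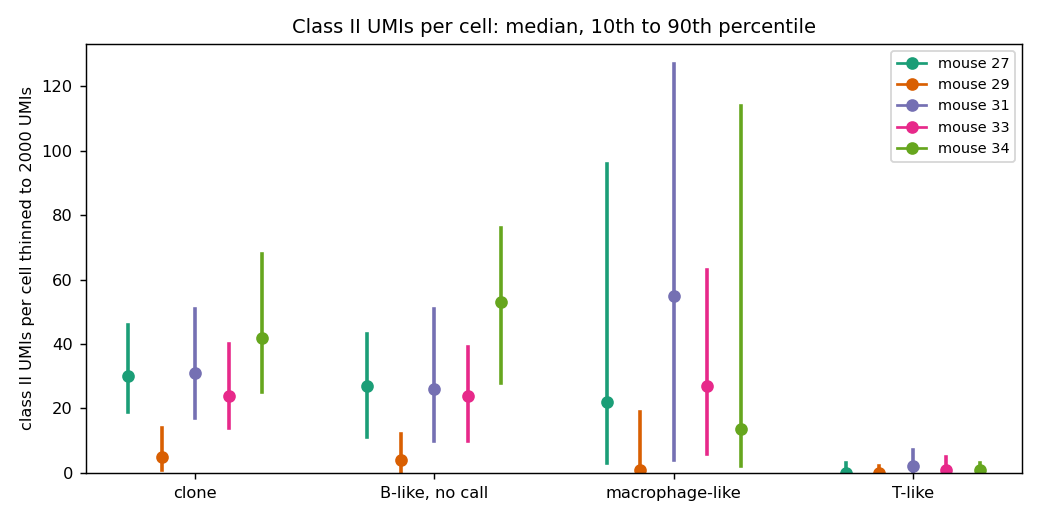
Class II UMIs per cell after thinning each cell to 2000 UMIs, as the median (point) and the 10th to 90th percentile (bar) for each BCR mouse. Clone medians are 24 to 42 UMIs except in mouse 29, where the median is 5.

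Genes of antigen processing were lower in the clone throughout. All 10 were lower in the clone than in macrophage-like cells, as were 21.5% of all genes tested (median log2 fold change -3.30 against 0.17). Ctss averaged 194 CPM in clones and 4091 CPM in macrophage-like cells (log2 fold change -4.61 ± 0.25, edgeR adjusted p = 4.62e-05), and Ctsd, the lysosomal aspartic protease, had -5.82 ± 0.33 (adjusted p = 5.16e-05). Of the 12 transcription genes, 4 were higher and 1 lower in the clone, against 24.9% and 21.5% of all genes tested. Pax5, Irf4, Nfyb and Rfx5 were the higher genes (4.72 ± 0.40, 4.06 ± 0.40, 1.64 ± 0.26 and 1.16 ± 0.41), and Spi1, the myeloid factor PU.1, was lower at -2.87 ± 0.24. Of 4 turnover genes, March1 and March8 were lower and H2-Eb2, a further β chain gene, was higher at 3.32 ± 0.50.

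Dendritic-like cells were not tested, since the comparison was planned for at least 3 mice with 20 cells and only mice 31 and 33 had them (20 and 24 cells). They held 49216 and 35698 CPM of the 10 genes there, above the clones of those mice at 14877 and 11786 CPM. Ciita was at 119 and 176 CPM, near or above the clones at 127 and 89.5 CPM and above macrophage-like cells at 33.1 and 41.2 CPM. H2-DMb2 made up 14.9% and 29.7% of H2-DMb UMIs, nearer to macrophage-like cells, whereas DO per DM was 0.174 and 0.215, nearer to the clones. Monocyte-like cells were at 1249, 396 and 1941 CPM in mice 27, 29 and 31 (41, 215 and 22 cells) but at 6199 CPM in the 12 cells of mouse 33, and were at 5663 and 4519 CPM in mice 30 and 32 (179 and 129 cells). Macrophage-like cells of TCR mice numbered 8 and 17, too few for the planned comparison. B-like cells of TCR mice, 73 and 42 cells, held 6245 and 2645 CPM, but in mouse 32 these UMIs came from few cells (Cd74 was seen in 9.52% of them and Cd79a in 4.76%).

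The last comparison asked how many class II UMIs lay in T-like cells. Summed class II was 562, 281, 1649, 1554 and 797 CPM in T-like cells of BCR mice 27, 29, 31, 33 and 34 and 263 and 188 CPM in those of TCR mice 30 and 32. The 5 BCR mice were all above both TCR mice, mouse 29 by the least. By edgeR, 0 of 10 members passed an adjusted p of 0.05 (background 1 of 13446 genes, 0.00744%, the lower gene Trerf1, with 1189 at an unadjusted p under 0.05). All 10 had positive log2 fold changes (median 2.35, all genes -0.02), and DESeq2 called 5 of them higher (H2-Aa, H2-Eb1, Ciita, H2-DMb2 and H2-Ob), where it called 170 of 13364 genes higher (1.27%) and 66 lower (0.494%). H2-DMb2 had the largest difference, 4.19 ± 1.14 (edgeR adjusted p = 0.397), from 19.96, 1.87, 32.7, 44.2 and 14.5 CPM against 1.70 and 1.03 CPM. H2-Aa followed with 3.90 ± 1.02 (adjusted p = 0.379), from 79.8, 17.3, 173, 263 and 99.9 CPM against 11.5 and 7.27 CPM. H2-DMb1 had the smallest difference, 1.05 ± 0.71. H2-Aa, H2-Eb1, Ciita and H2-DMb2, 4 of the members, had no overlap between BCR and TCR mice, where 2.92% of genes were above in this way. The B cell genes Cd79a, Cd79b and Ms4a1 had no overlap either, with Cd79a at 12.7 to 52.5 CPM against 0.713 and 1.77 CPM.

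Set against the clone of the same nodule, T-like cells held 3.75% to 13.2% of its summed class II level. The median over the 10 genes was 5.42%, 10.04%, 8.89%, 13.2% and 4.31% of the clone in mice 27, 29, 31, 33 and 34. The median of these 3 B cell genes was 2.92%, 2.18%, 7.06%, 13.9% and 2.50%. In mouse 33 the median over the class II genes was the lower one, but with doublets removed it was 5.97% against 4.11%. Of the 10 members, 7, 9, 8, 4 and 8 lay above all 3 B cell genes in mice 27, 29, 31, 33 and 34. T-like clusters and doublets were picked with B cell genes but without the members, so these counts and medians may lean to the members. The part of this, and of RNA from myeloid cells, was not tested. In mouse 29 T-like cells held the clone's H2-DMb2 and H2-Ob at 3.04% and 2.01% but its H2-DMa at 44.9% and its H2-Oa at 70.1% (55 H2-Oa and 6 H2-Ob UMIs in T-like cells).

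H2-Oa was the member with the highest percent of the clone in each BCR mouse, at 21.7%, 70.1%, 34.4%, 21.6% and 29.1% in mice 27, 29, 31, 33 and 34. With T cells taken by marker UMIs instead of clusters, H2-DMb1 was the highest member in mouse 33, at 27.5%, and H2-Oa in the other 4. H2-Ob, its partner, was at 6.97%, 2.01%, 9.99%, 16.1% and 4.80%. T-like cells of mouse 32, a nodule with 42 B-like cells, held H2-Oa at 12.0 CPM and H2-Ob at 1.10 CPM, that is 336 against 31 UMIs, and its T cell clone held 14.6 and 0.946 CPM. In the T cell clone of mouse 30 H2-Oa was at 1.503 CPM. Per H2-Ob UMI there were 0.263 to 0.691 H2-Oa UMIs in the B cell clones and 0.930 to 10.8 in T-like cells. H2-Oa lies wholly within the annotated span of BC051537, which was counted at 0 to 2.61 CPM in T-like cells, and H2-DMa overlaps Brd2 by 3122 bases, a gene at 109 to 181 CPM in T-like cells. Ciita overlaps Dexi, another counted gene, by 858 bases. Whether counting used strand was not stated, so reads of these overlapping pairs cannot be told apart here.

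**Figure D5:**
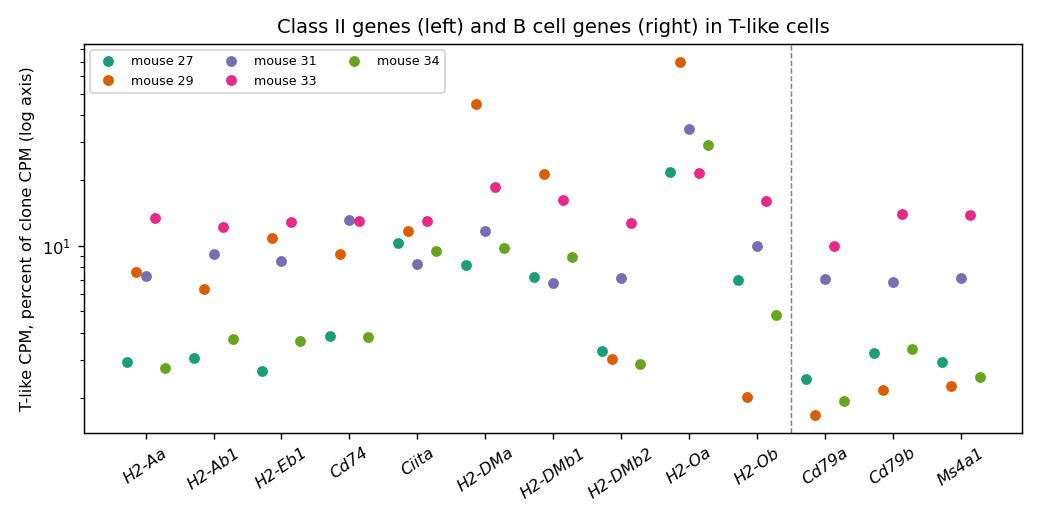
Level of each class II gene and of 3 B cell genes in T-like cells as a percent of the clone of the same mouse (log axis), with 1 point per BCR mouse. Among these T-like cells, taken by clusters, H2-Oa is the highest class II gene in each of the 5 mice, at 21.6% to 70.1%.

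Removing T-like cells with any UMI of a B cell gene lowered the class II sum to 349, 263, 1246, 484 and 720 CPM in BCR mice 27, 29, 31, 33 and 34 and to 230 and 184 CPM in TCR mice. The fall was steepest in mouse 33. Cd74 went from 191 to 182 CPM in mouse 29 and from 781 to 249 CPM in mouse 33. T-like cells were shallow (median 1189 to 3523 UMIs in BCR mice), and free RNA, doublets and low transcription in T-like cells were not told apart.

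Genes most like the class II pattern were sought over 33 pairs of mouse and cell class with at least 50 cells, among 6718 genes. The 10 highest were Irf8 (Spearman correlation 0.87), Hpse (0.84), Ddt (0.83), 9430038I01Rik (0.82), Cd40 and H2-Eb2 (0.80), Stx7 (0.80), Rftn1, Snx30 and Syngr2 (0.79). These pairs share mice and depth, so the values are a description. The members themselves ranged from 0.68 for H2-Oa to 0.96 for H2-Aa. Each member is part of the mean that it was compared with, so its value is raised by design and cannot be set beside those of other genes.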

How the data were processed

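The deposited matrices hold raw UMI counts per gene and called cell, which the authors did not normalize (SeekGene libraries of 7 nodules; builds GRCm38 and mm10 per the labels). The aligner, the annotation, the strand setting and which end of transcripts was read were not given or not settled in the sources used here. Deposited V(D)J tables hold contigs with UMI and read counts.

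Cells with at least 201 UMIs, at least 101 genes and at most 10% mitochondrial UMIs were kept (75503 of 77442) and clustered without the members (scanpy 1.11.5, leidenalg 0.10.2, 2000 variable genes, 30 components, 15 neighbors). Macrophage clusters were clustered again, giving 54 clusters, named by at least 3 markers. That rule, with plasma genes counted as B lineage and mixed clusters unnamed, was set after the clusters were seen. No doublet caller was run. A further B cell gene used to pick cells is not reported here. As an alternative, doublets were taken as cells holding 2 or more UMIs each of Cd3 and of B cell genes.

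UMIs summed per mouse and cell group were tested with edgeR 4.0.16 in R 4.3.3 (filterByExpr, TMM, quasi-likelihood, Benjamini-Hochberg over all genes tested, threshold 0.05, groups of at least 20 cells). Clone comparisons took the mouse as a block, since both groups came from 1 nodule (deviations of the same mouse correlated at 0.158 to 0.625). The count tests were tried on simulated counts. Mice are the replicates, and intervals cover counting error only, at 95%. DESeq2 1.42.0, RLE factors, no low-count filter, other group definitions and leaving out each mouse were alternatives, and taking in unnamed clusters with macrophage markers was added after seeing the data. Tests against dendritic-like cells, and of macrophage-like cells between BCR and TCR mice, were not run, since fewer than 3 mice, or no TCR mouse, had 20 cells.

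Members and lists were chosen with earlier results of these data known. All members are named, with up to 4 genes of each of 3 related lists and the 10 genes of most similar pattern. Other named genes were chosen after their values were seen.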

Additional observations from a re-analysis of the deposited data

Results flagged for a closer look

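Of 66 values that could be tested for a sample far from its group, 8 were flagged, where chance flags about 1 in 20, and all 8 were values of mouse 29. Many of the 66 share mice, genes or a clone, so their count cannot be weighed against that rate. In the clones H2-Oa was lowest there at 11.3 CPM and Cd74 UMIs per H2-Aa UMI were highest at 9.15. In other B cells Cd74 per H2-Aa was highest at 8.18 and the H2-DMb2 share of H2-DMb UMIs lowest at 60.0%, from 10 UMIs. In macrophage-like cells H2-Ob was lowest at 1.42 CPM (3 UMIs) and the H2-DMb2 share lowest at 4.05%. In T-like cells, as a percent of the clone, H2-DMa was highest at 44.9% and H2-Oa at 70.1%. These last values divide by the low clone of the same mouse.

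Cell groups outside the comparisons also held class II. Epithelial-like cells of mouse 29 (438 cells) held 5663 CPM of the 10 genes, above the clone of that mouse at 2945 CPM, with Cd79a at 18.7 CPM. Fibroblast-like cells of mouse 33 (188 cells) held 8379 CPM, 71.1% of the clone, where the 3 B cell genes had a median of 4.85%. No control nodule was analysed, so neither value has a reference level.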

How the results depend on the processing

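Of 781 values recomputed under an alternative, 314 of the 351 that answer a comparison and 402 of the 430 of single members kept their direction and side of the threshold. Clone levels and shares stayed within 1 SD. Leaving out 1 mouse cannot move a mean over mice by more than 1 SD, so for that setting only ranges are given. Without 1 mouse the clone mean of the 10 genes was 11151 to 15564 CPM. The class II mean in T-like cells as a percent of the clone (8.37%) was then 7.16% to 9.39%. This percent stayed within 1 SD without B cell UMIs or doublets. It became 28.96% with T cells by marker UMIs (medians 24.4%, 25.8%, 36.1%, 19.0% and 39.6% in mice 27, 29, 31, 33 and 34). The doublet and marker settings of this percent were added after seeing the data. Against other B cells, the count of genes higher in the clone (0) became 24 with DESeq2, 84 without the filter, 1 with clone cells of B-like clusters and 34 against uncalled B-like cells, and 0 to 5 without 1 mouse (5 without mouse 29, 3 without mouse 31). The count lower (2) became 97 with DESeq2, 65 without the filter, 0 without immunoglobulin genes, 33 against uncalled cells and 6 to 23 without 1 mouse (23 without mouse 31). Without the mouse as a block it became 0. Members with no call changed sign there. Against uncalled B-like cells H2-Aa was 0.027, H2-Ab1 0.10, H2-Eb1 0.028 and Cd74 0.066 (log2), and H2-Ab1 was 0.14 without the filter. H2-DMb2 was -0.048 with RLE, -0.060 with DESeq2, -0.14 without the block and -0.050 to 0.32 without 1 mouse (negative without mouse 29 or 33), and H2-DMa -0.068 (without mouse 31) to 0.33 without 1 mouse. Against macrophage-like cells, members lower (3) became 1 without the block. H2-Ab1 passed with RLE and DESeq2 (adjusted p 0.0436 and 0.0177), and H2-Aa did not with the added macrophage clusters (0.0591). In T-like cells, members higher in BCR mice (0) became 5 with DESeq2 and 2 without the filter (H2-Aa and H2-DMb2). Genes higher (0) became 170 with DESeq2, 65 without the filter, 1 without doublets, 1 without B cell UMIs and 0 to 4 without 1 mouse. Genes lower (1) became 66, 84, 2 and 2 in the same order, 0 outside the clone or with T cells by marker UMIs, and 0 to 19 without 1 mouse (17 without mouse 29, 19 without mouse 30). The cause of these changes was not tested. With 24 to 40 other B cells a mouse and 2 TCR mice, modest differences were not resolved at this depth.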

Other observations

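Class I genes, chosen after their values were seen, were also low in the clone of mouse 29. H2-K1, a class I heavy chain, was at 1413, 1258, 781 and 601 CPM in the clones of mice 27, 31, 33 and 34 and at 221 CPM in mouse 29, 21.7% of their median. Tap1, which carries peptides to class I, was at 23.1% of the median, H2-D1 at 31.8%, Psmb8 at 34.2%, Nlrc5, the class I coactivator, at 35.4% and B2m at 63.4%. In other B cells of mouse 29 H2-K1 stood at 63.7% and B2m at 131%, and in macrophage-like cells H2-K1 stood at 37.8% and Tap1 at 20.8%.

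Epithelial-like cells of mouse 29, in which the surfactant gene Sftpc reached 11754 CPM, held Cd74 at 3779 CPM and H2-Aa at 783 CPM, both above the clone of the same nodule (2079 and 227 CPM). They held 80 H2-Oa UMIs and 7 H2-Ob UMIs. Epithelial-like cells of mouse 30 held 1653 CPM of the 10 genes (77 cells). Fibroblast-like cells of mouse 33, with the chemokine genes Ccl19 at 851 CPM and Ccl21a at 486 CPM, held H2-DMb1 at 134% of the clone but H2-Oa and H2-Ob at 6.54% and 6.46%. Fibroblast-like cells of mouse 29 held 388 CPM (2879 cells), and those of mouse 34 held 12725 CPM in 35 cells, with Cd79a at 464 CPM.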
